A study of Mus musculus with 6 samples.

Results

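Imprinted genes are transcribed mainly from the copy inherited from 1 parent. They sit in clusters in which a stretch of DNA methylated in the egg or the sperm sets the active copy, and many of them act on embryonic growth, either promoting it (mostly genes read from the paternal copy) or restraining it (mostly genes read from the maternal copy). Methylation of that stretch is copied through every cell division of the embryo, so a change that arises early in a lineage is passed on to the daughter cells. A list of 38 autosomal imprinted genes from 17 clusters was read in single-cell RNA-seq libraries of mouse limb buds at stage E11.5. Of these genes, 34 had a row in both count matrices, among 15668 genes common to the matrices, and 4 could not be matched to a row (Kcnq1ot1, Rian, Mirg and Peg13). The counts were not split by parental allele, so the level of each gene was measured and its imprinting was not.

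Each of the 6 libraries was a group of its own. Hindlimbs of wild-type embryos and of embryos homozygous for a duplication at the Lbx1/Fgf8 locus (Dup) came from a strain labelled c57bl6.J, here C57BL/6. Hindlimbs and forelimbs of wild-type embryos and of embryos homozygous for an inversion at the same locus (Inv1) came from G4 ESC, a hybrid mouse embryonic stem cell line of 129sv and C57Bl6 parents. By the study's methods, animals were made from these stem cells by diploid or tetraploid aggregation. The kind of aggregation behind each library, the number of embryos pooled in it and any share of cells from the host embryo are not given in the sources used here. Lbx1 and Fgf8 lie on a chromosome that holds none of the listed genes. With 1 library a group there was no test: levels are unique molecular identifiers (UMIs) of a gene per 1000000 UMIs of the class (CPM), and intervals are 95% intervals that cover counting error only.

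After cells with 2000 or fewer detected genes were left out, 24891 of 26486 cells remained, between 2249 and 5947 a library, with 22.7 to 59.4 times 1000000 UMIs in all and a median of 6729 to 10098 UMIs a cell. The authors' classes put 2025 to 5384 cells a library in the mesenchyme, and the summed level of 6 mesenchyme markers was 985 to 1526 CPM there against 75.1 to 173 in muscle. Of 24805 distinct barcodes, 86 (0.347%) were found in 2 libraries. RNA of erythroid genes, which mesenchyme does not make, summed to 1561 CPM in the mesenchyme of the C57BL/6 wild type and 942 in Dup, against 231 to 406 in the G4 and Inv1 libraries, and its part in the differences between strains was not tested.

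Promoter sequences were available from RefSeq (GRCm38.p6) for 31 of the 38 genes, as 48 windows of 300 bases (250 before and 50 after the start). ZFP57, a zinc-finger protein that keeps methylation at imprinted stretches, is known to recognise the methylated letters TGCCGC. These letters or their reverse complement GCGGCA occurred in 11 of the 48 windows (22.9%), which belonged to 10 genes, and in 3813 of 32851 windows of all genes (11.6%). The motif holds a CG dinucleotide, and the windows of imprinted genes held more CG dinucleotides than all windows, whose median was 7, so the 2 shares are not matched for CG content. The windows of Nap1l5 (chr6:58907077-58907376, minus strand) and Mest (chr6:30737800-30738099, plus strand) are shown because Nap1l5 was at 0 in both Inv1 libraries and Mest was divided between cells of the G4 wild type. Another annotated Mest start (chr6:30733256-30733555) had 0 matches. A further one (chr6:30737803-30738102), which overlaps the window shown, held 2 and is also counted among the 11. The Mest window shown was picked from those with a match, so the presence of a match in it was fixed by that choice. Each window shown held 17 CG dinucleotides and 2 matches, shown in capitals, and a match is a description of the letters and not evidence of binding.
Nap1l5: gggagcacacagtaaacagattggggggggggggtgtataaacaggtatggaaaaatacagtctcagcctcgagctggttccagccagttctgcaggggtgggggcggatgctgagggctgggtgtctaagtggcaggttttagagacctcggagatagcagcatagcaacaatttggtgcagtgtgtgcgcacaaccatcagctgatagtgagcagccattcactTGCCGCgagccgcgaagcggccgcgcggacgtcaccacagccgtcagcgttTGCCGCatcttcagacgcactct
Mest: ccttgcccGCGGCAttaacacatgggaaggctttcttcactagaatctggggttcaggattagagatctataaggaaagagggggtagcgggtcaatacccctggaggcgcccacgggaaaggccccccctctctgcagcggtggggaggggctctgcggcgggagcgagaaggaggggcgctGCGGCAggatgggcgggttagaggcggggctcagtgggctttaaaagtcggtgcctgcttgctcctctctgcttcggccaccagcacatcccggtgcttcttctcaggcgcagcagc

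In the mesenchyme, 11 of the 34 genes had a mean of 100 CPM or more over the 6 libraries, 15 had a mean of 10 to 100 CPM and 8 lay under 10 CPM. The 34 genes together took 5279 to 7382 CPM of a library. The highest of the 6 levels was in the C57BL/6 wild type for 14 genes, and the lowest was in the Inv1 forelimb for 9. These counts take in genes under 10 CPM, and the same counts over all genes were not made. Levels below are listed in the order C57BL/6 wild-type hindlimb, Dup hindlimb, G4 wild-type hindlimb, Inv1 hindlimb, G4 wild-type forelimb and Inv1 forelimb. They are counts of 3′ ends with no scaling by length, and are compared between libraries only.

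**Figure D1:**
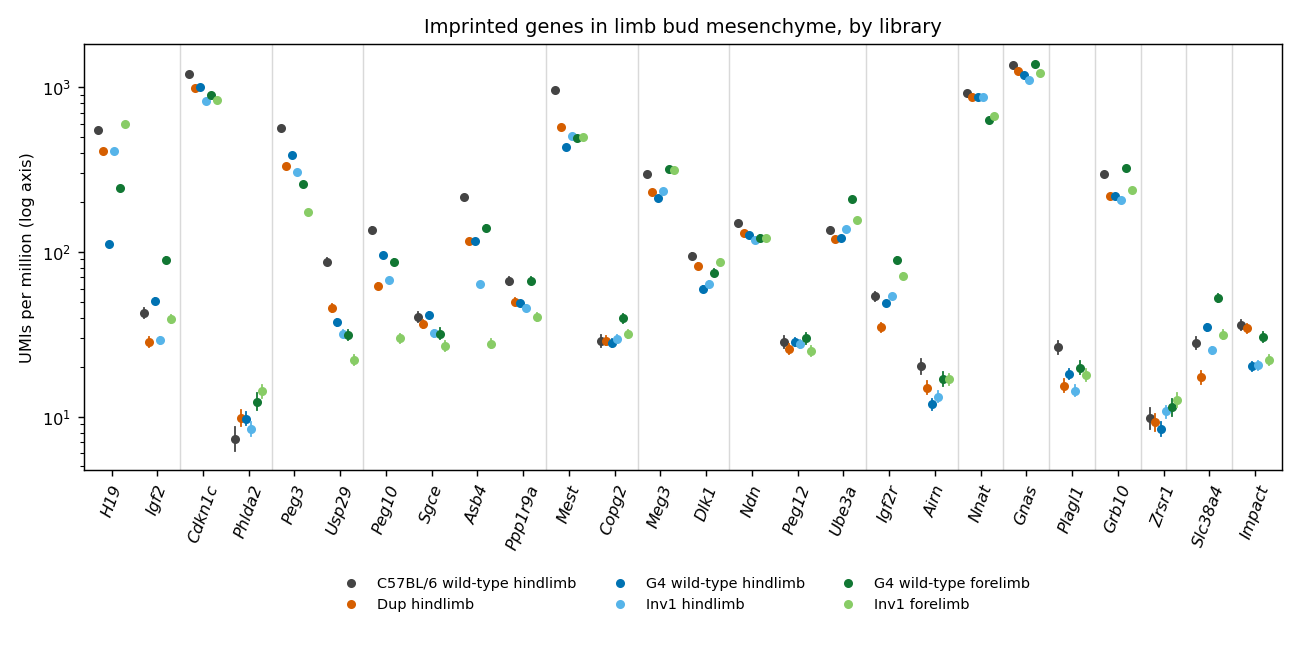
Level of the 26 imprinted genes with a mean of 10 CPM or more in mesenchymal cells (y axis, CPM, log axis), by gene and cluster (x axis); points are libraries, coloured by group, and vertical lines are 95% Poisson intervals. Among the 11 genes of 100 CPM or more, Asb4 and H19 have the widest spread, 7.72-fold and 5.38-fold between the highest and the lowest library, and Gnas the narrowest, 1.25-fold.

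The genes of the distal part of chromosome 7 hold a growth factor and its opponents. H19 (NCBIM37 chr7:149761434-149764048), a maternally expressed non-coding RNA that shares its enhancers with Igf2, had levels of 552, 412, 111, 411, 245 and 599.7 CPM. Igf2 (chr7:149836673-149852721, overlapped by Igf2as on the opposite strand), a paternally expressed growth factor, had levels of 42.9, 28.4, 50.7, 29.1, 88.9 and 39.3 CPM. The G4 wild-type libraries were thus the lowest for H19 and the highest for Igf2, in hindlimb and forelimb alike, with no overlap between these 2 libraries and the other 4 for either gene. The share of all genes that separate these libraries in this way was not counted. Cdkn1c, an inhibitor of cyclin-dependent kinases, lay at 1207, 990.2, 994, 822, 892 and 831 CPM. Phlda2, which restrains growth of the placenta, ranged from 7.38 to 14.3 CPM, while its neighbours Slc22a18 and Ascl2 reached at most 1.15 and 0.427 CPM.

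At the Peg3 cluster, Peg3 itself, a zinc-finger protein read from the paternal copy, had levels of 561, 330.4, 389, 305, 259.8 and 175 CPM. Usp29, its paternally expressed neighbour of the deubiquitinase family, had 87.3, 45.9, 37.5, 32.0, 31.4 and 22.1 CPM. For both genes the C57BL/6 wild type was the highest library and the Inv1 forelimb the lowest. At the Peg10 cluster, Asb4, a maternally expressed gene with ankyrin repeats and a SOCS box, spread over 214, 116, 116, 63.7, 139.9 and 27.7 CPM, and the retrotransposon-derived Peg10 over 136, 62.3, 96.3, 67.3, 87.3 and 30 CPM. Their neighbour Ppp1r9a (neurabin) ranged from 40.2 to 66.8 CPM and Sgce (epsilon-sarcoglycan) from 26.9 to 41.4 CPM. Here too the Inv1 forelimb held the lowest level of all 4 genes.

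Mest (chr6:30673547-30698457), a paternally expressed gene of the alpha/beta hydrolase family, had levels of 964, 574, 430.3, 503, 494 and 500.1 CPM, so that the C57BL/6 wild type stood above the other 5 libraries. Its annotated end overlaps that of Copg2 on the opposite strand, and no source used here says whether counting used strand. Copg2, a coatomer subunit, ranged from 28.2 to 39.7 CPM. At the Dlk1 cluster, the non-coding RNA Meg3 had 295, 230.2, 212, 234, 319 and 316 CPM, and Dlk1, a transmembrane relative of Notch ligands, had 94.4, 81.8, 59.7, 64.3, 74.7 and 87.5 CPM. Rtl1 of the same cluster stayed between 0.291 and 1.32 CPM.

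The remaining abundant genes spread from 1.25-fold (Gnas) to 1.73-fold (Ube3a) between the highest and the lowest library. Ndn (necdin, a growth suppressor) had 149.8, 129.8, 126, 118, 121 and 121 CPM. Ube3a, a ubiquitin ligase, had 136, 120.4, 122, 137, 208 and 157 CPM, and was highest in the 2 forelimbs. Nnat (neuronatin, a small membrane protein) had 917, 865, 867, 876, 629 and 666 CPM, and was lowest in the forelimbs. Gnas, which encodes the alpha subunit of the stimulatory G protein, had 1359, 1255, 1182, 1104, 1377 and 1221 CPM. Grb10, an adaptor that restrains insulin and IGF receptors, had 296, 217, 217, 207, 321 and 238 CPM, and was lower in each mutant than in the wild type of its pair. Nnat overlaps Blcap and Gnas overlaps Nespas on the opposite strand, so their counts could share reads with these genes.

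Among the other genes of moderate level, Igf2r, the receptor that removes IGF2, ranged from 34.9 to 89.6 CPM and its antisense RNA Airn from 11.9 to 20.3 CPM. These genes overlap on opposite strands. Slc38a4, an amino acid transporter, ranged from 17.4 to 52.5 CPM, the zinc-finger factor Plagl1 from 14.4 to 26.4, Impact, a regulator of the kinase GCN2, from 20.2 to 36.1, Peg12 from 25.2 to 29.9 and Zrsr1 from 8.45 to 12.7 CPM. Those under 10 CPM in the mean were Slc22a18, Ascl2, Zim1, Rtl1, Magel2, Snrpn, Mkrn3 and Nap1l5. Counts of Snrpn (3.66 to 9.66 CPM) may be split among overlapping transcripts of its large locus.

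Nap1l5 (chr6:58855228-58857120, within the span of Herc3 on the opposite strand), a paternally expressed gene of the nucleosome assembly family, was at 0 in both Inv1 libraries. Over all cells, 39 UMIs were counted in the C57BL/6 wild type, 67 in Dup, 129 in the G4 wild-type hindlimb and 127 in the G4 wild-type forelimb, against 0 in 5947 cells of the Inv1 hindlimb and 0 in 3675 cells of the Inv1 forelimb. A floor of 3 counts stands for 0.0504% and 0.0816% of cells in these libraries, and is not an interval. With a floor of 3 counts per library, the level was at least 44.8-fold lower than in G4 in the hindlimb and at least 66-fold lower in the forelimb. Of 11934 genes with 50 or more UMIs in each G4 library, 1 had 0 UMIs in both Inv1 libraries, and it was Nap1l5. Herc3, whose span holds Nap1l5, was present in the mesenchyme of all 6 libraries at 4.50, 3.11, 3.74, 3.22, 5.94 and 4.19 CPM. Nap1l5 lies on chromosome 6, which does not carry the inversion.

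Dup was compared with the C57BL/6 wild type in the mesenchyme over genes with a mean of 10 CPM or more in the pair. Of 24 imprinted genes read, 9 were lower by 1.5-fold or more and 0 were higher, while 2.66% of 7966 genes passed this fold in either direction. Those lower were Igf2, Peg3, Usp29, Peg10, Asb4, Mest, Igf2r, Plagl1 and Slc38a4, of which 7 are read from the paternal copy (of 14 such genes read) and 2 from the maternal (of 9). Peg10 was at 0.458 times the wild-type level (95% interval 0.432 to 0.486), Usp29 at 0.526 (0.489 to 0.565), Asb4 at 0.544 (0.520 to 0.569) and Mest at 0.595 (0.583 to 0.608). The median log2 ratio was -0.42 over the imprinted genes and -0.06 over all genes. H19 was at 0.747 times, inside the fold.

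The make-up of the mesenchyme differed between these 2 libraries. The authors' finer classes put 34.0% of C57BL/6 wild-type mesenchyme in the stylopod (the upper limb) and 16.1% in the autopod (hand or foot plate), against 18.2% and 34.5% in Dup. Within stylopod mesenchyme, 0 of 25 imprinted genes read passed 1.5-fold (2.27% of all genes did), and Peg3 was at 777 CPM in the wild type and 685 in Dup. Within zeugopod mesenchyme (the lower limb), 4 of 24 were lower (Usp29, Peg10, Asb4 and Mest; 2.43% of all genes passed), and Peg3 was at 538 and 373 CPM. Within autopod mesenchyme, 8 of 23 were lower (H19, Igf2, Phlda2, Peg3, Usp29, Peg10, Asb4 and Mest; 3.61% of all genes passed), with Peg3 at 198 and 103 CPM and Mest at 627 and 331 CPM. In muscle connective tissue (261 cells in Dup and fewer in the wild type) 6 of 24 were lower (Peg10, Asb4, Ppp1r9a, Igf2r, Airn and Slc38a4; 15.5% of all genes passed). In stylopod chondrocyte progenitors (168 and 128 cells) 3 of 26 were higher (Igf2, Phlda2 and Dlk1; 15.5% of all genes passed), with Igf2 at 47.5 CPM in the wild type and 82.1 in Dup. In autopod chondrocyte progenitors (90 and 272 cells) 3 of 24 were higher (Cdkn1c, Phlda2 and Impact) and 6 lower (H19, Igf2, Peg10, Asb4, Mest and Slc38a4), while 16.1% of all genes passed. The finer classes thus differed in which genes passed and in direction, and Igf2 was lower in both autopod classes and higher in stylopod chondrocyte progenitors. With the 6 finer classes weighted equally, 2 genes passed (1 higher and 1 lower), and with equal weights for distal, proximal and other cells, defined below, 3 passed, all lower. The shares of all genes under these weights are not given here, so these counts are not set against them.

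Inv1 was compared with the G4 wild type in each limb. In the hindlimb, 3 of 24 imprinted genes read passed 1.5-fold, against 0.843% of 7947 genes. H19 was higher in Inv1 at 3.69 times the G4 level (3.59 to 3.8), while Igf2 was at 0.574 (0.538 to 0.611) and Asb4 at 0.551 times (0.528 to 0.575). In the forelimb, 6 of 26 passed, against 9.64% of 8628 genes (9.23% lower and 0.417% higher). H19 was again higher, at 2.45 times (2.38 to 2.52), and Igf2 lower, at 0.442 times (0.413 to 0.473). Asb4 was at 0.198 (0.184 to 0.213), Peg10 at 0.343 (0.318 to 0.370), Ppp1r9a at 0.602 and Slc38a4 at 0.60 times. H19, Igf2 and Asb4 thus passed with the same direction in both limbs. The share of all genes that passed in both limbs with the same direction was not counted. The limbs share no library, but whether their cells came from different embryos is unknown, so they are not treated as independent. The median log2 ratio was -0.08 over imprinted genes and 0.04 over all genes in the hindlimb, and -0.25 and -0.17 in the forelimb. With median-of-ratios scaling, which divides each library by the median of its genes' ratios to the series and moved the median of all genes from -0.16 to 0.05, 4 genes passed in the forelimb, H19, Igf2, Peg10 and Asb4, against 3.53% of all genes.

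The higher H19 of Inv1 was also seen outside the mesenchyme. In muscle it was at 601 CPM in the Inv1 hindlimb and 203 in the G4 hindlimb (2.97 times, 2.74 to 3.22), and at 899 and 289.9 CPM in the forelimbs (3.10 times, 2.83 to 3.40). Endothelium of the hindlimb had 571 and 158 CPM (3.63 times, 2.99 to 4.43), and dorso-ventral ectoderm had 280.4 and 122 CPM (2.29 times, 1.81 to 2.92). In the apical ectodermal ridge (AER), the epithelium at the distal rim of the bud, the hindlimb values of 55.7 and 33.4 CPM rested on 37 and 9 UMIs and did not differ beyond counting error (1.67 times, 0.789 to 3.92). Asb4, by contrast, was at 26.9 and 31.1 CPM in hindlimb muscle of Inv1 and G4, an interval of 0.663 to 1.12 times, and at 23.0 and 55.5 CPM in forelimb muscle (0.414 times, 0.302 to 0.564).

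Within mesenchymal cells of 1 position the difference of Asb4 remained in the forelimb. Distal cells, with a UMI of Hoxa13 or Hoxd13, had 116 CPM in G4 and 22 in Inv1, and proximal cells, with a UMI of Meis1 or Meis2 and of neither Hox gene, had 169 and 28.4 CPM. In the hindlimb, distal cells had 86.5 and 49.9 CPM and proximal cells 147 and 129 CPM. The share of proximal cells was lower in Inv1 than in G4, at 9.55% against 20.2% in the hindlimb and 2.04% against 4.44% in the forelimb. With distal, proximal and other cells weighted equally, Asb4 in the hindlimb was at 0.673 times and no longer passed.

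The wild-type hindlimbs of the 2 backgrounds differed as well. Relative to C57BL/6, 7 of 24 imprinted genes read were lower in G4 and 0 higher, against 7.73% of 7993 genes in either direction. H19 was at 0.202 times (0.195 to 0.208), Usp29 at 0.429 (0.402 to 0.459), Mest at 0.446 (0.438 to 0.455), Asb4 at 0.540, Impact at 0.561, Airn at 0.588 and Dlk1 at 0.633 times. The median log2 ratio was -0.45 over the imprinted genes and -0.11 over all genes. With median-of-ratios scaling the latter was 0.01, and 6 genes were lower and 0 higher. The share of all genes with that scaling is not given for this pair. When all 4 libraries of G4 background were set against both of C57BL/6 background, 3 of 26 genes read had no overlap and a fold of 1.5 or more (6.93% of 8226 genes did). These were Usp29 (0.461 times), Mest (0.626) and Impact (0.664), all lower in G4 background. H19 was not among them, as the Inv1 libraries lay at 411 and 599.7 CPM and the C57BL/6 libraries at 412 and 552 CPM. Strain, count matrix and library preparation cannot be told apart in this comparison.

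Between the G4 wild-type forelimb and hindlimb, 6 of 25 imprinted genes were higher in the forelimb by 1.5-fold or more and 0 lower, a share under the 31.9% of 8439 genes that passed. H19 was at 2.20 times (2.12 to 2.28), Igf2r at 1.84, Igf2 at 1.75, Ube3a at 1.70, and Slc38a4 and Impact each at 1.51 times. The median log2 ratio was 0.32 over the imprinted genes and 0.33 over all genes. Median-of-ratios scaling moved the median of all genes of 10 CPM or more over the series from 0.31 to -0.07, and 1 imprinted gene (H19, 1.68 times) was then higher and 4 lower, while 23.8% of all genes passed. With equal weights for distal, proximal and other cells, 14 were higher and 0 lower, while 35.1% of all genes passed. The G4 hindlimb library entered 3 of these 5 comparisons, so its low H19 is part of each of them.

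Over the 5 comparisons, 15 imprinted genes passed 1.5-fold at least once. The same count over all genes was not made, and single pairs passed between 0.843% and 31.9% of all genes. The other 11 genes with a mean of 10 CPM or more passed in none, among them Cdkn1c, Meg3, Ndn, Nnat, Gnas and Grb10. Meg3 and Grb10 were close to the fold in the G4 forelimb relative to hindlimb, with Grb10 at 1.48 times.

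Genes related to imprinting were read in the same mesenchymal cells. Of 8 partners of IGF2 (ligand, receptors, binding proteins of its mRNA and adaptors), 5 of 7 read were lower in the Inv1 forelimb than in G4, where 9.23% of all genes were, and 0 of 7 passed in the hindlimb, where Igf2 was at 0.574 times. With median-of-ratios scaling 1 of 7 was lower in the forelimb. In Dup 1 of 8 was lower (Igf1, 52.4 against 101 CPM), where 1.95% of all genes were. In G4 relative to the C57BL/6 hindlimb, 3 of 8 were lower, where 6.12% of all genes were. In the G4 forelimb relative to hindlimb 5 were higher and 1 (Igf1) lower, where 31.2% of all genes were higher and 0.699% lower. With median-of-ratios scaling 3 were higher and 1 lower in that pair. Of 11 genes that maintain or remove imprints, 0 of 11 passed in Dup and 0 of 10 in the Inv1 hindlimb. In the Inv1 forelimb 4 of 11 were lower (Dnmt3a, Dnmt3b, Tet1 and Tet3), where 9.23% of all genes were. This became 1 of 11 with median-of-ratios scaling. Zfp57 had 20.6 CPM in G4 and 33.4 CPM in C57BL/6 hindlimbs (0.617 times, 0.558 to 0.682). It was the only one of 11 to pass in that pair, where 7.73% of all genes did, and 0 of 11 passed there with median-of-ratios scaling. Between the G4 forelimb and hindlimb 7 of 11 were higher, where 31.2% of all genes were, and 3 of 11 with that scaling. Among 15 neighbours and host genes of the clusters that were read (24 had a row), 2 were lower in Dup (Casd1 and Phactr2), where 1.95% of all genes were. In G4 relative to C57BL/6, 2 were lower (Lsp1 and Phactr2), where 6.12% of all genes were. Between Inv1 and G4, 0 passed in either limb, where 0.843% (hindlimb) and 9.64% (forelimb) of all genes did. With median-of-ratios scaling 1 was higher in the Inv1 forelimb. Between the G4 limbs, 2 neighbours were higher and 1 lower in the forelimb, where 31.2% and 0.699% of all genes were. With median-of-ratios scaling 0 were higher and 3 lower. The shares of all genes with that scaling are given above only for the pairs with a forelimb. Counts with that scaling in the hindlimb pairs have no such share beside them.

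Levels of single imprinted genes differed between the cell classes. Each class was read relative to the mesenchyme of the same library, in libraries with 30 or more of its cells. The classes were clustered from these cells, so the ratios are a description. A gene was named for a class at 2 or more times its mesenchyme level in every such library, and as low in a class at 0.5 times or less.

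**Figure D2:**
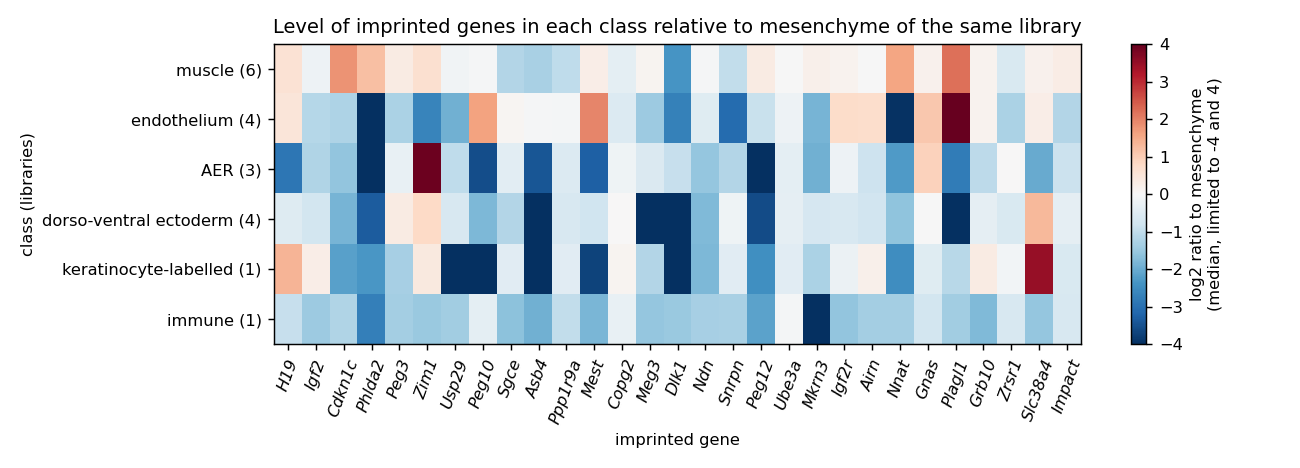
Median over libraries of the log2 ratio between the level in a class and the level in mesenchyme of the same library, for imprinted genes (x axis) and classes (y axis, number of libraries with 30 or more cells in parentheses); colours are limited to -4 and 4. Plagl1 and Mest stand out as high in endothelium, Cdkn1c and Nnat in muscle and Zim1 in the AER, and Meg3, Dlk1 and Asb4 are low in dorso-ventral ectoderm.

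In muscle (6 libraries, 112 to 268 cells each), 3 of 26 genes read were named as high, while 3.01% of all genes were. Cdkn1c, whose product stops the cell cycle in differentiating muscle, lay between 2539 and 3798 CPM, a median of 3.45 times the mesenchyme. Nnat lay between 1903 and 2695 CPM (median 3.01 times) and Plagl1 between 53.2 and 207 CPM (median 4.58 times). Gnas was at 0.949 to 1.27 times the mesenchyme level. Dlk1 in muscle was at 10.5 to 30.5 CPM in 4 hindlimb libraries and 7.93 CPM in the G4 forelimb, but at 125 CPM in the Inv1 forelimb, where 4 of 168 cells held 75.0% of 376 UMIs. Without the 4 cells of highest count in each library, the level was 31.3 CPM in the Inv1 forelimb and 3.96 to 9.79 CPM in the other 5.

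In endothelium (4 libraries), 2 of 23 genes read were high and 2 of 26 low, against 10.7% and 9.29% of all genes. Mest lay between 1442 and 2256 CPM, a median of 3.88 times the mesenchyme, and Plagl1 between 217 and 295 CPM, a median of 16.2 times. Nnat was low, between 17.7 and 189.6 CPM, and Phlda2 reached at most 1.06 CPM. Phlda2 had 1 UMI in the G4 hindlimb and 0 in Dup and in both Inv1 libraries. The 0 UMIs of Dup allow up to 10.3 CPM, so its low level is not resolved there. With classes of 10 or more cells Phlda2 was no longer among the low genes. Mesenchyme markers summed to 37.2 to 215 CPM in this class, against 985 to 1526 in the mesenchyme.

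In the AER (3 libraries, 33 to 82 cells), 1 of 19 genes read was high and 11 of 26 low, against 9.09% and 8.89% of all genes. Zim1, a zinc-finger gene of the Peg3 cluster read from the maternal copy, lay between 41.3 and 100.3 CPM, a median of 15.2 times the mesenchyme, where it was under 7 CPM in every library. Its counts in the AER were small, with 27 UMIs for G4 (hindlimb), and 28 (hindlimb) and 16 (forelimb) for Inv1. In the 3 libraries with 10 to 25 AER cells, Zim1 was at 56, 38.4 and 179 CPM. H19 lay at 33.4 to 80.1 CPM and Mest at 44.6 to 119 CPM in the 3 libraries of 30 or more AER cells. In the smaller ones H19 was at 346, 230.3 and 82.6 CPM and Mest at 448, 217 and 68.8 CPM (C57BL/6 wild type, Dup and G4 forelimb). Over all 6 libraries, 5 genes were low (Peg10, Asb4, Mest, Ndn and Peg12) and H19 was not among them. Mesenchyme markers summed to 486 to 895 CPM in AER cells, and their part in the remaining levels of the low genes was not tested.

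In dorso-ventral ectoderm (4 libraries), 10 of 26 genes were low, against 5.59% of all genes. Counts of several of them were at or near 0. In Dup, the G4 hindlimb, the Inv1 hindlimb and the Inv1 forelimb, Meg3 had 5, 0, 5 and 5 UMIs, Dlk1 had 1, 0, 3 and 0, Asb4 had 1, 0, 6 and 0 and Plagl1 had 0, 0, 0 and 1, so no ratio is given for these genes. Peg3 was not low there, at 315, 483, 387 and 318 CPM in these 4 libraries. Cells labelled as keratinocytes reached 30 only in the Inv1 hindlimb (39 cells), where 2 of 19 genes were high (15.4% of all genes) and 12 of 25 low (20.3%). The 2 were Slc38a4 at 279.8 CPM (11.1 times) and H19 at 1045 CPM (2.54 times). Slc38a4 was between 196 and 799 CPM in this class in all 6 libraries, and H19 had 59.6 CPM in G4 hindlimb cells of the class and 1179 CPM in those of Dup. Immune cells reached 30 only in Dup (52 cells), where 17 of 24 genes were low, against 18.6% of all genes, and 0 of 20 high.

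The mesenchyme itself was graded from proximal to distal. Of 26 genes read, 21 were higher in proximal than in distal cells in all 6 libraries, and 9 by 1.5-fold or more in all 6, against 17.4% and 2.03% of all genes. The 9 were Peg3, Usp29, Peg10, Mest, Meg3, Dlk1, Airn, Plagl1 and Slc38a4. Proximal cells were 774, 625, 1046, 514, 114 and 68 in the 6 libraries, so forelimb values rest on few cells.

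**Figure D3:**
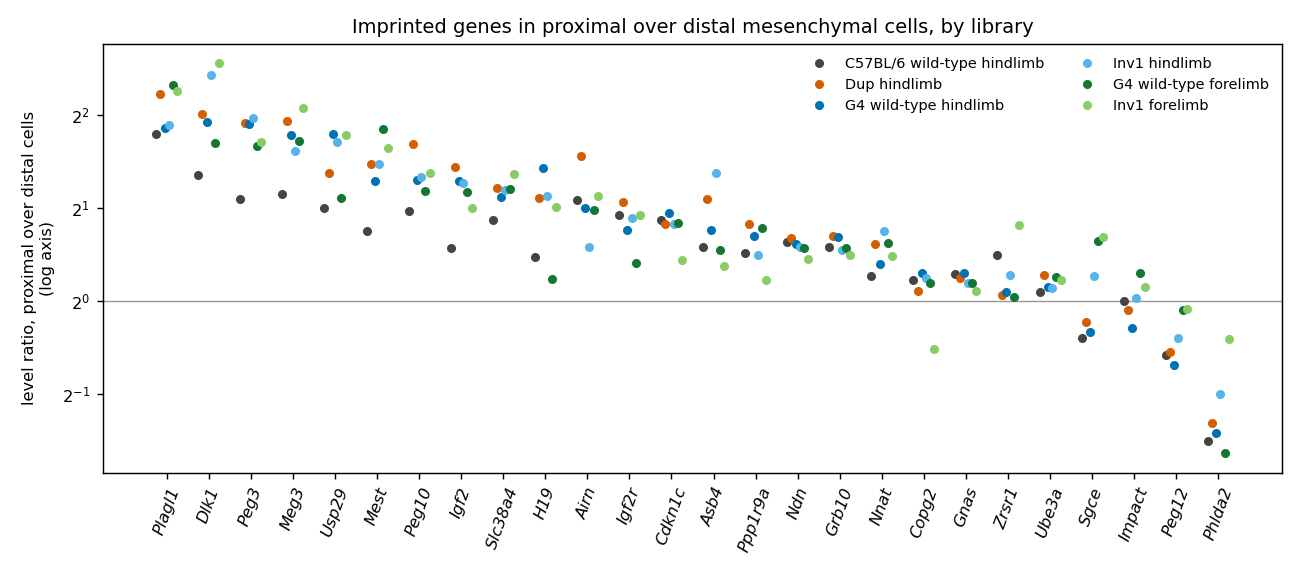
Ratio of the level in proximal over distal mesenchymal cells (y axis, log axis) for the 26 imprinted genes with a mean of 10 CPM or more (x axis), with 1 point per library. The points of Plagl1 lie between 3.46 and 4.97, those of Phlda2 and Peg12 lie under 1 in every library.

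Peg3 had 375, 194, 206, 194, 188 and 141 CPM in distal cells and 798, 729, 770.4, 756, 598 and 459 CPM in proximal cells. Dlk1 had 54.0, 37.5, 26.6, 26.5, 44.1 and 43.8 CPM in distal and 138, 150.5, 101, 143, 143 and 257 CPM in proximal cells. Mest had 739, 386, 296, 375, 363 and 386 CPM in distal and 1242, 1067, 723, 1039.7, 1305 and 1205 CPM in proximal cells. For Peg3 and Dlk1 the proximal and distal levels of the 6 libraries did not overlap, whereas for Mest the highest distal level exceeded the lowest proximal one. Phlda2 ran the other way, at 9.75 to 15.2 CPM in distal and 4.14 to 11.4 CPM in proximal cells, as did Peg12 by a smaller margin (0.620 to 0.938 times). Ube3a and Gnas were close to even, at 1.07 to 1.21 and 1.08 to 1.23 times.

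The share of proximal cells ran from 38.2% in the C57BL/6 wild type through 20.2% (G4 hindlimb), 14.7% (Dup), 9.55% (Inv1 hindlimb) and 4.44% (G4 forelimb) to 2.04% (Inv1 forelimb). Genes with a steep proximal gradient, such as Peg3, were therefore weighed by very different cell numbers in the 6 libraries. Among the 4 hindlimbs, Peg3 ranged from 729 to 798 CPM in proximal cells, from 194 to 375 CPM in distal cells and from 305 to 561 CPM over all mesenchyme.

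H19 and Mest were then read cell by cell, because their levels over a class could come from all cells or from some. Each cell was thinned to 4000 UMIs, which left out 3 to 32 mesenchymal cells a library. A UMI of H19 was found in 78.0, 62.8, 18.7, 58.9, 25.3 and 66.7% of mesenchymal cells, and a UMI of Mest in 92.1, 76.2, 57.9, 71.1, 62.9 and 72.9%. The G4 wild-type libraries had the lowest share for each gene. In immune cells of the same libraries (11 to 52 cells), in which RNA shed by other cells can give a UMI, H19 was found in 44.8, 38.5, 10.5, 7.41, 0 and 9.09% (0 of 13 cells allows up to 24.7% by the Clopper-Pearson interval), and Mest in 41.4, 26.9, 15.8, 18.5, 7.69 and 18.2%. Every mesenchymal share exceeded that of the immune cells. Median depth before thinning was 6611 to 9807 UMIs in mesenchymal and 8661 to 13533 in immune cells.

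Both genes were found together in 72.8, 49.8, 2.58, 43.9, 6.82 and 50.6% of mesenchymal cells. If the genes had been spread independently over cells, these shares would have been 71.8, 47.9, 10.8, 41.9, 15.9 and 48.6%. Thus in 4 libraries cells with both genes were about as frequent as the separate shares give, and in the 2 G4 wild-type libraries they were rarer. The odds ratio between the genes was 0.0754 in the G4 hindlimb and 0.122 in the G4 forelimb, against 1.98 for the C57BL/6 wild type, 1.56 for Dup, and 1.5 (hindlimb) and 1.55 (forelimb) for Inv1. Without thinning it was 0.0570 and 0.0816 in G4, 2.87, 1.64 and 1.37 in the other hindlimbs, and 0.845 in the Inv1 forelimb. Over the 55 pairs of the 11 abundant imprinted genes, the odds ratio of H19 and Mest ranked lowest in both G4 libraries, and ranked 43, 36, 34 and 44 from the lowest in the others. The next pair was at 0.572 in the G4 hindlimb (H19 and Nnat) and 0.599 in the G4 forelimb (H19 and Gnas).

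**Figure D4:**
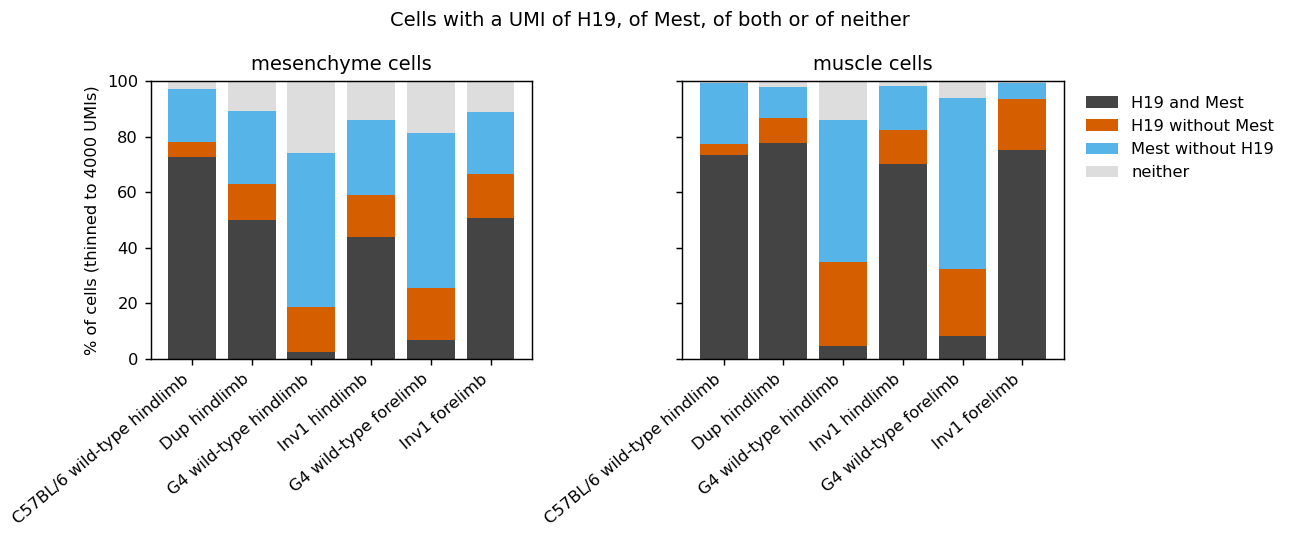
Percentage of mesenchymal cells (left) and muscle cells (right) with a UMI of H19 and Mest, of H19 without Mest, of Mest without H19 or of neither (y axis), by library (x axis), after thinning to 4000 UMIs a cell. Mesenchymal cells with both make up 2.58% and 6.82% in the G4 wild-type hindlimb and forelimb and 43.9 to 72.8% in the other 4 libraries.

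The same cells were then divided by H19 counts before thinning, into those with no H19 UMI and those with 3 or more, and the other imprinted genes were read in each. Mest was at 732 CPM in cells without and 996 CPM in cells with H19 in the C57BL/6 wild type, at 415 and 708 in Dup, and in Inv1 at 426 and 578 (hindlimb) and at 359 and 605 (forelimb). In G4 it had 537 and 32.9 CPM in hindlimb cells (3876 and 734 cells), and in forelimb cells 645 and 60.1 CPM (1731 and 487 cells). The ratios were 0.0613 (0.0535 to 0.0699) and 0.0932 (0.0820 to 0.105) in G4, against 1.36 to 1.70 elsewhere. Divided by Mest instead, H19 was at 315 CPM in cells without a Mest UMI and 8.81 CPM in cells with 3 or more in the G4 hindlimb, and at 709.7 and 25.4 CPM in the forelimb, while the ratio was 1.07 to 1.44 in the other libraries. Of the G4 cells with 3 or more H19 UMIs, 19 of 734 (2.59%) in the hindlimb and 19 of 487 (3.90%) in the forelimb also had 3 or more of Mest, against 63.9 to 90.1% in the other libraries.

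**Figure D5:**
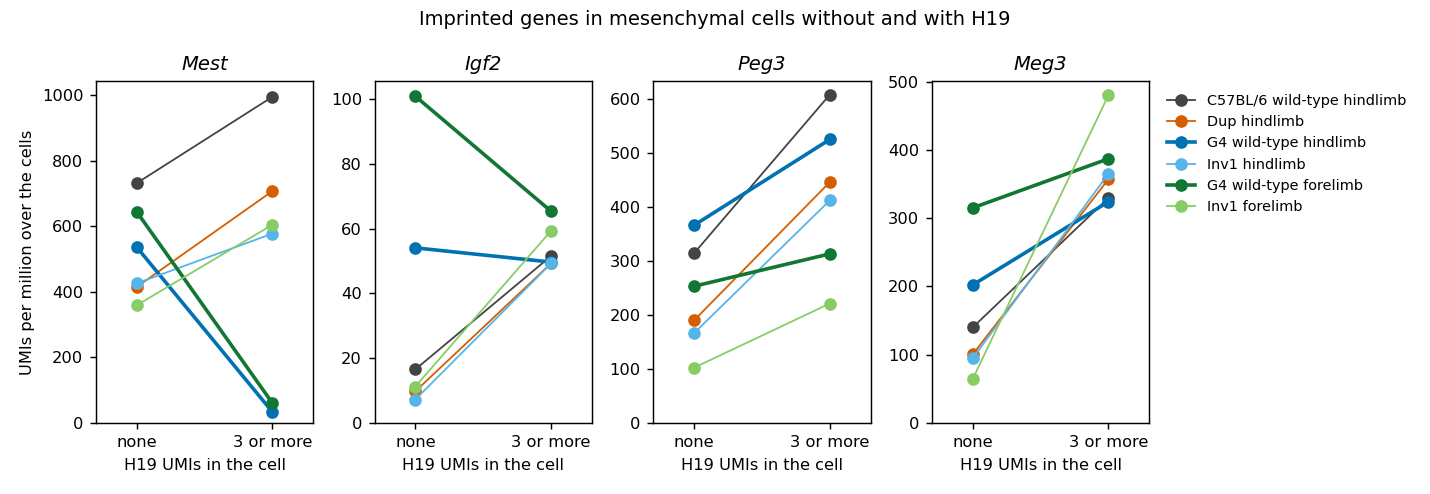
Level (y axis, CPM, from 0) of Mest, Igf2, Peg3 and Meg3 in mesenchymal cells with no H19 UMI and with 3 or more (x axis), with 1 line per library; thick lines are the G4 wild-type libraries. In cells with H19, Mest lies at 32.9 and 60.1 CPM in the 2 G4 libraries and between 578 and 996 CPM in the other 4.

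Other imprinted genes were less divided. In cells without H19 and with 3 or more, Igf2 had 54.1 and 49.7 CPM (G4 hindlimb) and 101 and 65.4 CPM (G4 forelimb), whereas in the other 4 libraries it was 3.12 to 6.85 times higher in the cells with H19. Peg3 was higher in cells with H19 in all 6 libraries, at 1.43 and 1.24 times in G4 and 1.93 to 2.49 times elsewhere, and so was Meg3, at 1.60 and 1.23 times in G4 and 2.36 to 7.50 times elsewhere. Copg2, which overlaps Mest, had 27.8 and 29.5 CPM in G4 hindlimb cells and 38.2 and 44.5 CPM in G4 forelimb cells. Of all genes read in this division, Mest had the lowest ratio in both G4 libraries (of 7909 and 8820 genes), with log2 ratios of -4.03 and -3.42. Over the 7842 genes read in both, Mest was the only gene at 2-fold lower in both and not 1.5-fold lower in any other library, and 0 genes met the same rule upward.

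The cells with and without H19 were also compared in depth and position. Their median UMIs were 8332 and 9034 in the G4 hindlimb and 7792 and 8147 in the forelimb. Distal cells made up 25.1% of those with 3 or more H19 UMIs and 48.6% of those without in the G4 hindlimb, and 57.7% and 64.9% in the forelimb. In the other 4 libraries these shares were 27.8 to 60.7% and 68.4 to 97.0%. Within distal cells alone Mest was at 347 and 42.3 CPM in cells without and with H19 in the G4 hindlimb, and at 464 and 64.3 CPM in the forelimb. Within proximal cells it was at 1002 and 26.1 CPM and at 1574 and 88.4 CPM. The difference was therefore present at either position. Mesenchyme markers summed to 962 and 1018 CPM in G4 hindlimb cells without and with H19, and to 1482 and 1659.7 CPM in the forelimb.

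Cells of other classes of the G4 libraries were divided by H19 in the same way. In muscle, Mest was at 692 CPM in cells without and 35.5 CPM in cells with H19 in the G4 hindlimb (130 and 73 cells), and at 919 and 31.6 CPM in the G4 forelimb (67 and 29 cells). In the other libraries 1 to 4 muscle cells lacked H19, and the ratio there was 0.511 (0.386 to 0.690) in the Inv1 hindlimb, 0.789 in the C57BL/6 wild type and 1.19 in Dup. In dorso-ventral ectoderm of the G4 hindlimb, 184 UMIs of Mest were counted in 40 cells without H19 and 0 in 16 cells with 3 or more, and in the forelimb 52 in 15 cells and 1 in 6 cells. In endothelium of G4 Mest had 1737 and 762 CPM in hindlimbs (0.439 times, 0.375 to 0.511) and 2413 and 335 CPM in forelimbs (0.139 times, 0.0934 to 0.20), on 31 and 10 cells and on 8 and 5 cells. Divided by Mest instead, H19 in G4 hindlimb endothelium was at 82.9 CPM without Mest and 121 CPM with 3 or more UMIs (3 and 38 cells). In G4 forelimb endothelium it was at 736 and 46.0 CPM (3 and 12 cells). Lower Mest in cells with H19 was thus seen in mesenchyme, muscle, ectoderm and endothelium. It was smallest in endothelium, where hindlimb cells divided by Mest did not show it. In the AER, 1 cell of each G4 library had 3 or more H19 UMIs, so this class is not described.

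H19 itself was spread unevenly over G4 cells. In the G4 hindlimb 74.7% of mesenchymal cells had no H19 UMI where counting error at an even level would give 36.2%, and in the G4 forelimb 67.4% had none where it would give 14.9%. The excess of cells at 0 had rank 1 among 1549 and 1774 genes of 100 CPM or more in these libraries. In the C57BL/6 wild type the shares were 8.74% and 2.39%, rank 133 of 1649. In Dup they were 24.8% and 7.02%, rank 36 of 1607. In Inv1 they were 25.4% and 3.93% in the hindlimb (rank 28 of 1569) and 18.2% and 0.899% in the forelimb (rank 75 of 1614). An excess of cells at 0 was thus not confined to G4, where it was largest.

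Genes of the sex chromosomes were read in the same division. Uty, on the Y chromosome, was at 1.03 CPM in G4 hindlimb cells without H19 and 8.08 CPM in those with 3 or more, and at 1.16 and 13.9 CPM in the G4 forelimb. Ddx3y was at 1.08 and 3.67 CPM (41 and 25 UMIs) in the G4 hindlimb and at 1.28 and 4.18 CPM (20 and 18 UMIs) in the G4 forelimb. In these same groups of mesenchymal cells, Kdm5d had 0 UMIs in G4 and Inv1, and Eif2s3y had 5 UMIs in G4 forelimb cells with H19 and 0 in the others of G4 and Inv1. In the C57BL/6 wild type and Dup all 4 Y-linked genes and Xist were present, with Uty between 11.9 and 19.3 CPM in either group of cells. Xist had 0 UMIs in either group of G4 hindlimb cells. In the G4 forelimb it had 7 UMIs in cells without H19 and 0 in cells with 3 or more. In the Inv1 hindlimb, Uty was at 0.541 and 0.249 CPM and Ddx3y at 0.619 and 0.664 CPM in cells without and with H19. For the Inv1 forelimb, Uty was at 0.296 and 0.541 CPM (2 and 11 UMIs) and Ddx3y at 0.739 and 0.492 CPM (5 and 10 UMIs). The 2 groups of G4 cells thus differed in RNA of Uty and Ddx3y as well as in H19 and Mest, and the part of sex in the division was not tested.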

How the data were processed

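Limb buds of mouse embryos at E11.5 were profiled by 10x Chromium 3′ single-cell RNA-seq, 1 reaction per group. Per the labels and the study's methods, the authors aligned reads with Cell Ranger 3 to a custom mm9 genome (the submitters' processing notes also name mm10), removed doublets and cells with few genes or much mitochondrial RNA, and deposited raw UMI counts per gene and cell in 2 matrices with class annotations. No source used here says whether counting used strand. Of the annotation columns, 13 per-sample columns were not used.

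Cells with more than 2000 detected genes were kept. Counts were summed per library and authors' class, and expressed as CPM over the 15668 genes common to both matrices. Intervals (95%) were exact Poisson for levels, Clopper-Pearson for shares and conditional binomial for ratios. They cover counting error only. With 1 library per group no test was run. A gene was read in a comparison at a mean of 10 CPM or more, and passed at 1.5-fold. Genes of 100 CPM or more are given in every library, those past the fold with both values, and the others by range. The floor was 3 counts. For cell-by-cell shares, cells were thinned to 4000 UMIs. Scripts were tested on simulated data. The members and lists were chosen with earlier results of these data known. Python 3.11.15, NumPy 2.4.6, SciPy 1.17.1, pandas 2.3.3 and Matplotlib 3.10.9 were used.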

Additional observations from a re-analysis of the deposited data

Results flagged for a closer look

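The level of Mest in mesenchymal cells with 3 or more H19 UMIs, relative to cells with none, lay on opposite sides of 1 in different groups. It was 1.36 in the C57BL/6 wild-type hindlimb, 1.70 in the Dup hindlimb and in Inv1 1.36 (hindlimb) and 1.69 (forelimb), but 0.0613 in the G4 wild-type hindlimb and 0.0932 in the G4 wild-type forelimb. Within distal cells alone the Inv1 hindlimb was also under 1, at 0.907 (0.869 to 0.946), against 0.122 in the G4 hindlimb and 0.139 in the G4 forelimb. With 1 library per group, the difference between groups was not tested.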

How the results depend on the processing

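No paired analysis was possible because every library is labelled as replicate 1 and the groups share fewer than 2 replicate numbers. Of 31 ratios past 1.5-fold, 31 still passed with cells of more than 1000 genes, 29 with cells of more than 3000 genes, 30 with the mean over cells and 21 with median-of-ratios scaling. With equal weights for distal, proximal and other cells, chosen after seeing the data, 23 passed. The number of genes past the fold in Dup against the C57BL/6 wild type went from 9 to 3 with these weights, to 2 with equal weights of 6 finer classes (also chosen after seeing the data), to 5 at a mean of 50 CPM or more and to 1 at 2-fold. Igf2 in that pair was at 1.01 with the finer classes weighted equally, against 0.663. At 2-fold, 1 gene passed for Inv1 against G4 in the hindlimb, 3 for G4 against C57BL/6 and 1 for forelimb against hindlimb, which had 14 with equal position weights. The strain comparison had 5 genes at 5 CPM or more, 1 at 50 CPM or more and 1 at 2-fold. Except where given above, the shares of all genes under these settings are not stated, so these counts are not set against them. With classes of 10 or more cells, 5 genes were low in the AER, 1 high in keratinocyte-labelled cells and 1 low in endothelium. Without thinning, H19 was found in 91.3, 75.2, 25.3, 74.6, 32.6 and 81.8% of mesenchymal cells and Mest in 97.3, 86.8, 69.5, 87.1, 73.9 and 90.4%, in the order of libraries above. Median-of-ratios scaling of the lists of related genes was also chosen after seeing the data. The cause of these differences was not tested. Classes of few cells, such as the AER, limit the precision.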
